A study of Mus musculus with 12 samples.

Results

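The 37 genes described here encode the enzymes and transporters that carry glucose to lactate, the oxygen sensors that govern hypoxia-inducible factor (HIF), and genes known as targets of HIF. They were chosen from the 53465 gene identifiers in the count tables as a named list of glycolysis and HIF target genes. Each one was matched to 1 gene symbol, and all 37 had enough reads to be tested. The list was drawn up with earlier results from these same libraries in view, and which comparison entered the choice is not recorded. Every comparison is therefore treated as used: calls, counts and adjusted p-values of these genes are descriptions, and none of them is offered as independent support.

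Glycolysis starts when a glucose transporter of the Slc2a family lets glucose into the cell and a hexokinase phosphorylates it. Later enzymes split the sugar and recover ATP while making pyruvate, which lactate dehydrogenase turns into lactate that leaves through monocarboxylate transporters. HIF is a transcription factor whose alpha subunit is hydroxylated by the Egln prolyl hydroxylases and degraded while oxygen is plentiful. When oxygen falls, the subunit escapes this and raises transcription of many glycolytic genes and of genes for vessel growth, mitochondrial turnover and collagen maturation. In skin, the epidermis is fed by diffusion from the dermis below and relies heavily on glycolysis, and the fast fibres of the muscle sheet under mouse skin express glycolytic enzymes at very high levels.

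Bulk RNA sequencing of mouse skin gave 12 libraries, 3 per group, crossing 2 genotypes of the transcription factor gene Foxp3, which regulatory T cells require, with 2 skin sites. The control genotype was Foxp3-WT (WT), and the altered one is written Foxp3-E2 in the sample labels and Foxp3-DE2 in the protocol (DE2 below). The irradiated site was a shaved flank patch given 6 doses of ultraviolet B light (UVB), of 200 mJ/cm2 per the sample labels and 100 mJ/cm2 per the protocol, and the untreated site came without irradiation. The sources used here do not give strain, age, sex, the time of sampling after UVB, how the DE2 allele was made, or whether the untreated site was shaved. Irradiation therefore cannot be told apart from body site or shaving. Below, UVB differences and levels after UVB refer to the irradiated site against the untreated site. Nothing in the labels says which animal a library came from, so the p-values reflect differences among libraries, and 2 libraries may come from the same mouse.

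Total counts were 2809142 to 4741726 per library. Foxp3 had 1, 7 and 0 reads in the 3 irradiated DE2 libraries and none in the other 9, where 3 counts over a group set limits of 0.225 to 0.283 CPM (counts scaled to the same library size), so these reads do not check the genotype labels. The skin label was borne out by 10 of 10 epidermal keratinocyte markers with reads in every group. A set of 18 skeletal muscle markers took 10.2% ± 2.93 (SD, n = 3) of the counts in untreated DE2, against 3.15% ± 0.35 in irradiated DE2, 3.96% ± 0.42 in untreated WT and 3.85% ± 2.52 in irradiated WT. Irradiated WT replicate 2, at 6.60%, stood above the other libraries of its group, at 3.29% and 1.65%. In bulk RNA, fewer cells of a type and less RNA per cell cannot be told apart.

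The genotypes differed in these genes at both sites, but in largely different genes. Here a gene is called when its adjusted p is under 0.05, from the quasi-likelihood test of edgeR with Benjamini-Hochberg adjustment over all 15126 genes tested. At the irradiated site, 12 of the 37 genes were called higher in DE2 than in WT and 0 lower, beside a background of 2.96% of all genes called (2.35% higher and 0.608% lower). At the untreated site, 17 were higher and 1 lower, beside a background of 23% (11.8% higher and 11.2% lower). Of the 28 genes called at either site, Slc2a3 and Egln3 were higher at both, 10 were called at the irradiated site alone, and 16 at the untreated site alone. Hk1, Pfkfb3, Pgam1, Pdk1, Bnip3l, Adm, Mif, Kdm3a and Ddit4 were called between genotypes at neither site. A call at 1 site alone does not show that the sites differ, which the interaction of genotype and UVB addresses further on.

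**Figure D1:**
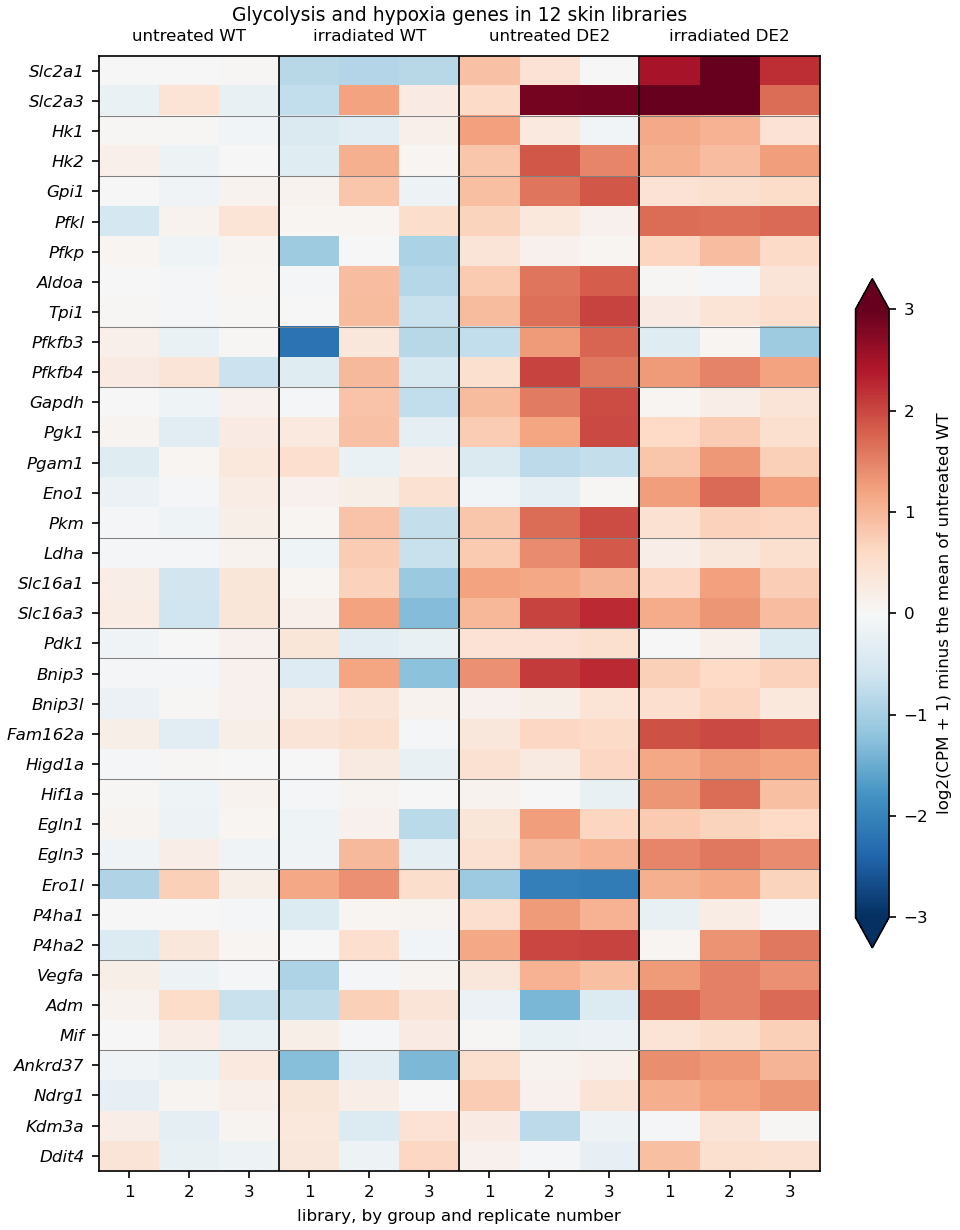
Colour gives log2(CPM + 1) of each of the 37 genes (rows, grouped by role) in each of the 12 libraries (columns), minus the gene's mean in the 3 untreated WT libraries. The irradiated DE2 libraries are red for Slc2a1, Pfkl, Eno1, Fam162a and Hif1a, while untreated DE2 replicates 2 and 3 are red for Gpi1, Aldoa, Tpi1, Gapdh, Pkm, Ldha and Bnip3.

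At the irradiated site, the clearest difference was in transcripts of a glucose transporter gene. Slc2a1, which encodes GLUT1, the main glucose transporter of keratinocytes, measured 285, 407 and 238 CPM in the irradiated DE2 libraries and 27.9, 27.1 and 27.7 CPM in irradiated WT. All 3 DE2 libraries stood far above the 3 WT libraries. The difference was 11.2-fold (log2 3.49 ± 0.26 SE, edgeR adjusted p = 1.4e-05), and Slc2a1 had the smallest p of all 15126 genes in this comparison. In GENCODE's models on GRCm38 the gene spans bases 119108711 to 119137983 of chromosome 4, on the plus strand. At the untreated site Slc2a1 was at 49.6, 49.6 and 52.1 CPM in WT and at 93.8, 69 and 49.7 CPM in DE2, where the groups overlapped and the gene was not called.

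Slc2a3, which encodes GLUT3, a high-affinity transporter prominent in neurons and white blood cells, was much scarcer. It was at 39.4, 31.0 and 5.83 CPM in irradiated DE2 and at 0.274, 3.94 and 1.52 CPM in irradiated WT. The groups did not overlap, but the third DE2 library was well below the other 2, and the irradiated WT group held only 22 reads of the gene in all. The difference was log2 3.69 ± 0.89 (edgeR adjusted p = 0.0366). Set against transcript length, Slc2a1 outweighed Slc2a3 in every group. The ratio of Slc2a3 to Slc2a1 in CPM per kilobase averaged 0.0386 ± 0.0276 (SD, n = 3) in irradiated DE2 and 0.0339 ± 0.0334 in irradiated WT, groups that overlapped. It averaged 0.0868 ± 0.0688 in untreated DE2 and 0.0115 ± 0.0058 in untreated WT.

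Among the enzymes of the pathway, transcripts for the liver and platelet types of phosphofructokinase, the enzyme of its committed step, and for enolase 1 were higher in irradiated DE2. Pfkl was at 175, 170 and 178 CPM in irradiated DE2 and at 55.6, 55.8 and 77.5 CPM in irradiated WT, groups far apart, a 2.76-fold difference (log2 1.47 ± 0.24, edgeR adjusted p = 0.00477). Pfkp was at 188, 232 and 180 CPM against 57.5, 122 and 61.7 CPM (log2 1.31 ± 0.25, adjusted p = 0.0119). Pfkp overlaps the antisense gene Pitrm1 by 748 exonic bases, and with no strand setting given their reads cannot be told apart there. Eno1, the widely expressed enolase, was at 539, 735 and 530 CPM against 247, 255 and 310 CPM, again with no overlap, a 2.22-fold difference (log2 1.15 ± 0.20, adjusted p = 0.00516).

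The other steps of glycolysis were not called between genotypes under irradiation. Aldoa, which cleaves the 6-carbon sugar, differed by log2 -0.05 ± 0.39, Gapdh by 0.06 ± 0.35 and Tpi1 by 0.13 ± 0.35. Ldha, which makes lactate, differed by 0.22 ± 0.34, and the lactate exporters Slc16a1 and Slc16a3 by 0.85 ± 0.36 and 0.78 ± 0.49. A gene that misses the threshold is not thereby shown to be equal, and the exporters were higher in DE2 by more than their standard error. The hexokinases Hk1 and Hk2 were higher by log2 1.12 ± 0.33 and 0.71 ± 0.32, at edgeR adjusted p = 0.0862 and 0.31, and were not called. Hk1 was at 70.2, 65.1 and 42.6 CPM in irradiated DE2 and at 23.0, 24.4 and 35.0 CPM in irradiated WT, without overlap.

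Transcripts for both the regulated subunit of HIF and 1 of its hydroxylases were higher in irradiated DE2. Hif1a transcripts were at 166, 211 and 125 CPM, against 63.6, 69.6 and 64.8 CPM in irradiated WT and 56.4 to 70.5 CPM in the 6 untreated libraries. The gene spans bases 73901375 to 73947530 of chromosome 12 on the plus strand. Its 3 irradiated DE2 libraries were the highest of all 12, by 2.54-fold over irradiated WT (log2 1.34 ± 0.20, edgeR adjusted p = 0.00262). Egln3, a hydroxylase that is itself a HIF target, was at 180, 193 and 172 CPM against 58.9, 127 and 51.7 CPM (log2 1.19 ± 0.29, adjusted p = 0.0363). Egln1, the main oxygen sensor in most cells, was at 182, 167 and 160 CPM against 95.1, 115 and 59.0 CPM, without overlap, and was not called (log2 0.92 ± 0.25, adjusted p = 0.0662).

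Among genes of mitochondria, Fam162a, a hypoxia-induced gene linked to cell death, was at 487, 513 and 482 CPM in irradiated DE2 and at 169, 181 and 124 CPM in irradiated WT. The groups were far apart, a 3.12-fold difference (log2 1.64 ± 0.20, edgeR adjusted p = 0.000673). Higd1a, a hypoxia-induced protein of the respiratory chain, was at 351, 377 and 361 CPM against 155, 187 and 133 CPM (log2 1.19 ± 0.17, adjusted p = 0.00209). Bnip3 and Bnip3l, receptors for the removal of mitochondria, differed by log2 0.46 ± 0.44 and 0.25 ± 0.17 and were not called.

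Vegfa, the main growth factor for blood vessels, was at 63.7, 76.0 and 68.5 CPM in irradiated DE2 and at 13.2, 25.1 and 27.4 CPM in irradiated WT. Its libraries did not overlap, and the difference was 3.17-fold (log2 1.67 ± 0.29, edgeR adjusted p = 0.00576). Ndrg1, a differentiation and stress gene and a standard HIF target, was at 131, 142 and 154 CPM against 79.7, 70.3 and 62.0 CPM (log2 1.01 ± 0.20, adjusted p = 0.0153). Ankrd37, a small ankyrin repeat protein, was at 16.1, 14.8 and 12 CPM against 1.64, 4.18 and 1.52 CPM (log2 2.51 ± 0.52, adjusted p = 0.0178). Ankrd37 overlaps the exons of the antisense genes Ufsp2 and Lrp2bp, so some of its few reads may belong to them. Of the other secreted factors, Adm, which encodes the vasodilator peptide adrenomedullin, differed by 1.49 ± 0.49 and the cytokine gene Mif by 0.43 ± 0.18, and neither was called. The enzymes of collagen maturation were not called either. Kdm3a, a histone demethylase, ranged from 21.8 to 52 CPM and Ddit4, an inhibitor of the growth regulator mTOR, from 3.89 to 9.79 CPM over all 12 libraries, with neither called in any comparison. Pdk1, the kinase that keeps pyruvate out of mitochondria, ranged from 56.1 to 106 CPM and was not called in any comparison.

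**Figure D2:**
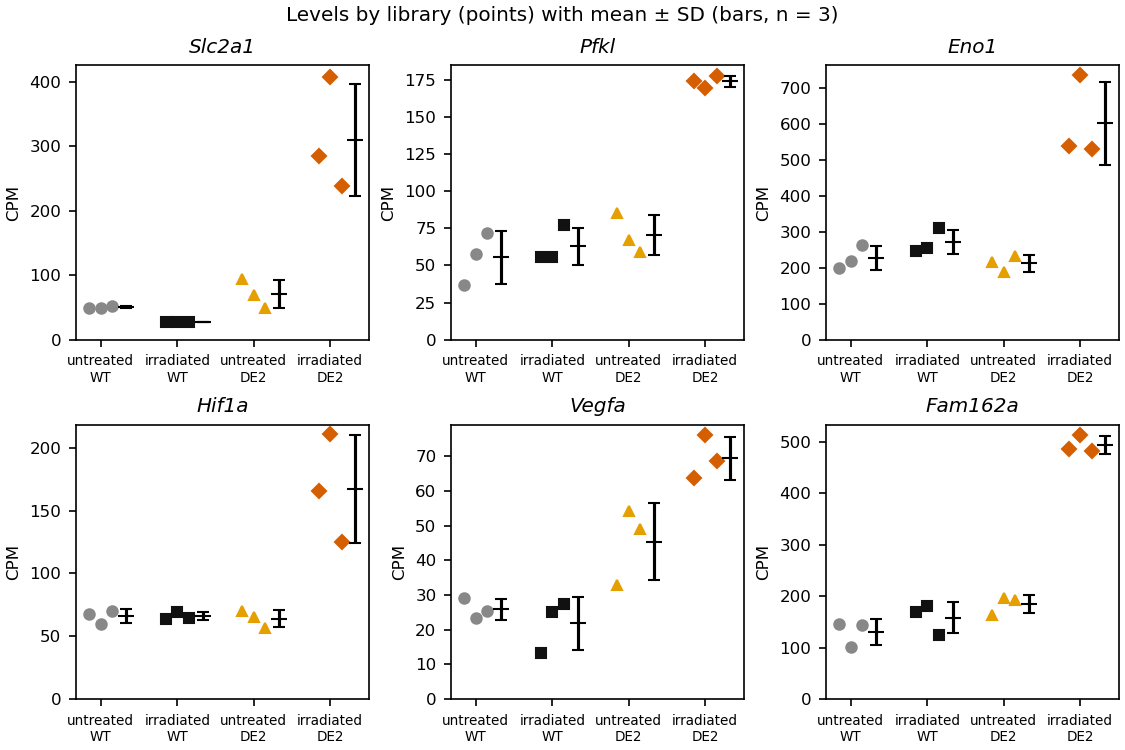
Points give CPM in each library for 6 genes called at the irradiated site alone, and bars give the mean ± SD of 3 libraries. The irradiated DE2 libraries sit above all other libraries in each panel, at 238 to 407 CPM for Slc2a1 and 125 to 211 CPM for Hif1a.

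Over the 37 genes, the median genotype difference at the irradiated site was log2 0.80, against -0.03 over all genes tested. The libraries of the groups did not overlap for 18 of the 37, beside 21.3% of all genes. Leaving out each of the 12 libraries in turn, 7 genes were called every time (Slc2a1, Pfkl, Eno1, Fam162a, Higd1a, Hif1a and Vegfa). The count fell from 12 to 7 without irradiated DE2 replicate 2 or irradiated WT replicate 3, and to 8 without irradiated WT replicate 1. Ankrd37, Egln3, Pfkp and Slc2a3 lost their calls in each of these 3 fits, and Ndrg1 in the first 2.

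Several cell type markers moved with this group of genes. Epidermal keratinocyte markers took 2.46% ± 0.27 of counts in irradiated DE2 and 0.798% ± 0.120 in irradiated WT. Of these 10 markers 3 were called higher (Krt5, Krt14 and Krt1) and 2 lower (Lor and Flg2), and Krt14, at 15620 ± 2087 CPM against 2299 ± 501 CPM (SD, n = 3), carried most of the sum. Keratinocyte markers of the hyperproliferative state (Krt6a, Krt16 and 6 others) took 2.12% ± 0.29 and 0.376% ± 0.081. Neutrophil markers took 0.452% ± 0.020 and 0.0395% ± 0.0110, with all 12 markers detected in irradiated DE2 while Fpr1, Fpr2 and Ly6g had no reads in irradiated WT. Hair follicle markers went the other way, at 1.25% ± 0.30 and 2.53% ± 0.41, all 13 lower without overlap and 3 called lower. The part of these markers in the genotype differences was not tested. Muscle markers did not separate these groups, with summed levels of 28080 to 36270 CPM in irradiated DE2 and 14660 to 68340 CPM in irradiated WT. With the muscle markers as a covariate all 12 calls were kept, Slc2a1 at log2 3.49, and Hk1, Egln1, Pkm, Slc16a3 and Bnip3 were called higher as well.

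The promoters of the 4 genes with the smallest p at the irradiated site are shown because HIF binds DNA at a short core. Each line gives the 250 bases before the gene's start as annotated by RefSeq, on the gene's strand and 5′ to 3′, with coordinates on GRCm38.p6. Starts in RefSeq can differ from those of the GENCODE gene models used elsewhere, with the nearest GENCODE start 37 bases further downstream for Hif1a and 183 for Higd1a. For Slc2a1 and Fam162a it lies upstream, at -34 and -33, within the printed bases. The last marked core of Slc2a1 spans that start, and the last of Fam162a lies after it. Capitals mark the cores ACGTG or GCGTG, or their reverse complements CACGT or CACGC where the core lies on the other strand. They are Slc2a1 at chr4:119108495-119108744 on the plus strand, Fam162a at chr16:36071562-36071811 on the minus strand, Higd1a at chr9:121857797-121858046 on the minus strand and Hif1a at chr12:73907617-73907866 on the plus strand.
Slc2a1: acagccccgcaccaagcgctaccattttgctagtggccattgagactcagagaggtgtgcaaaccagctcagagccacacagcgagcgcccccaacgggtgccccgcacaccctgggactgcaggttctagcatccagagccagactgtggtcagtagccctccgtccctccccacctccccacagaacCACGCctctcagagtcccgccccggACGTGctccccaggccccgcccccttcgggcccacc
Fam162a: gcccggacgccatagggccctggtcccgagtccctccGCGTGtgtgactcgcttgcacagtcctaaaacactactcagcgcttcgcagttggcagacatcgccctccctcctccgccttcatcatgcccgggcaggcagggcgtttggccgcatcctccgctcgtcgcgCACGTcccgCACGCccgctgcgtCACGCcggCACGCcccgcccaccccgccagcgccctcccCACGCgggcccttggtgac
Higd1a: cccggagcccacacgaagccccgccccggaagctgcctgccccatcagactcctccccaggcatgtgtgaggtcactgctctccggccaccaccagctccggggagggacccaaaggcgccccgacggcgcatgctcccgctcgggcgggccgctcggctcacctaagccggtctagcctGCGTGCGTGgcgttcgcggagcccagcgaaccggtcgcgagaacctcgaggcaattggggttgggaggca
Hif1a: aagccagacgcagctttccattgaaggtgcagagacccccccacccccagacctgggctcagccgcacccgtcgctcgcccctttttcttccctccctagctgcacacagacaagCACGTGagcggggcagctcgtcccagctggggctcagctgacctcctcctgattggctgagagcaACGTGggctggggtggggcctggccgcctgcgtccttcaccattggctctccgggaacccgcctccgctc
Slc2a1 holds 2 cores, Fam162a 6, Higd1a 2 that overlap by a base, and Hif1a 3, of which 2 are the strands of 1 palindrome CACGTG, the E-box that many other factors recognise. Of the 37 genes, 34 had a promoter in the RefSeq table, and 31 of these held a core on either strand in at least 1 promoter, against 41.5% of all 27025 genes in the table. Those with a core were 10 of the 10 tabled genes called higher at the irradiated site and 21 of the other 24. Gpi1, Tpi1 and Mif held none. The list was built in part from known HIF targets, no test was made of these shares, and a match is a description of the letters, not a bound site or a cause. The 27025 genes were not matched to the list for base composition or number of promoters. The table held no entry for Slc2a3, Bnip3l or Ndrg1.

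At the untreated site, 8 of the 18 genes that differed were enzymes of the path from glucose to lactate, and the other 10 were the transporters Slc2a3, Slc16a1 and Slc16a3, Pfkfb4, Bnip3, Egln1, Egln3, Ero1l, P4ha1 and P4ha2. Of the 10 enzymes from Gpi1 to Pkm that carry out the pathway after hexokinase, Gpi1, Aldoa, Tpi1, Gapdh, Pgk1 and Pkm were called higher in untreated DE2, and Pfkl, Pfkp, Pgam1 and Eno1 were not. Gpi1, glucose-6-phosphate isomerase, was at 534, 866 and 1035 CPM in untreated DE2 and at 286, 264 and 309 CPM in untreated WT. All DE2 libraries were higher, by 2.84-fold (log2 1.5 ± 0.27, edgeR adjusted p = 0.00142). Aldoa, the aldolase of muscle and of most adult tissues, was at 10630, 18590 and 21510 CPM against 6161, 5921 and 6382 CPM (log2 1.46 ± 0.40, adjusted p = 0.0172). Gapdh was at 2903, 4484 and 5869 CPM against 1510, 1388 and 1652 CPM (log2 1.54 ± 0.36, adjusted p = 0.00652). In each of these genes DE2 replicate 1 was the lowest of its group and still above the WT libraries.

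Tpi1, triose phosphate isomerase, was at 2121, 3439 and 4453 CPM in untreated DE2 and at 1119, 1049 and 1132 CPM in untreated WT (log2 1.60 ± 0.36). Pgk1, which recovers the first ATP, was at 176, 235 and 414 CPM against 110, 82.7 and 123 CPM (log2 1.39 ± 0.32). Pkm, pyruvate kinase, was at 1783, 3199 and 3878 CPM against 965, 920 and 1133 CPM (log2 1.55 ± 0.36). None of the 3 overlapped between genotypes, and DE2 replicate 1 was again the lowest of its group. Ldha was at 4632, 7158 and 9616 CPM against 2583, 2588 and 2899 CPM (log2 1.41 ± 0.35, edgeR adjusted p = 0.0101). The exporter Slc16a3 was at 59.5, 121 and 142 CPM against 34.4, 19.1 and 37.9 CPM (log2 1.82 ± 0.50). Slc16a1, the other exporter, was at 87.7, 84.3 and 76.7 CPM against 42.9, 25.2 and 48.6 CPM (log2 1.09 ± 0.36). All 3 genes of the lactate step were thus called higher, each without overlap. Hk2, the inducible hexokinase of muscle and fat, was at 142, 295 and 222 CPM against 88.8, 71.5 and 80.5 CPM (log2 1.45 ± 0.32, adjusted p = 0.0051). Pfkfb4, which makes an activator of phosphofructokinase, was at 21.7, 65.1 and 47.5 CPM against 18.1, 20.3 and 9.38 CPM (log2 1.49 ± 0.45). Slc2a3 was at 2.19, 14.7 and 15 CPM against 0.871, 1.86 and 0.834 CPM (log2 3.13 ± 0.91), with 16 reads in the WT group in all. In both genes DE2 replicate 1 lay just above the highest WT library. Aldoa, Gapdh, Pgk1, Pgam1, Ldha, Mif and Bnip3l have annotated pseudogenes that carry their symbol, so counts shared with near-identical copies are uncertain. Copies annotated under other names were not looked for, so the remaining genes are not shown to be free of this.

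Bnip3 was at 129, 216 and 238 CPM in untreated DE2 and at 47.0, 47.5 and 54.0 CPM in untreated WT, a 3.93-fold difference with no overlap (log2 1.97 ± 0.45, edgeR adjusted p = 0.00681). The prolyl 4-hydroxylase subunits that modify collagen differed too, P4ha2 at 41.2, 75 and 76.4 CPM against 13.3, 23.1 and 18.8 CPM (log2 1.80 ± 0.39). P4ha1 was at 54.1, 94.2 and 79.2 CPM against 38.5, 38.4 and 37.1 CPM (log2 0.99 ± 0.24). Neither subunit overlapped between genotypes. Of the sensors, Egln1 was at 136, 249 and 164 CPM against 111, 94.4 and 110 CPM (log2 0.80 ± 0.25). Egln3 was at 88, 126 and 133 CPM against 59.9, 74.1 and 59 CPM (log2 0.85 ± 0.29). Both sensors were higher in all 3 DE2 libraries. Ero1l alone was lower. It encodes an oxidase that forms disulfide bonds in newly made proteins, and it was at 21.7, 10.8 and 10.3 CPM in untreated DE2 and at 24.8, 79.2 and 54.2 CPM in untreated WT (log2 -1.88 ± 0.40, adjusted p = 0.00388). The groups did not overlap, although WT replicate 1 lay close to DE2 replicate 1. Hif1a itself was level between genotypes at this site (log2 -0.04 ± 0.20), as was Eno1 (-0.10 ± 0.19).

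Over the 37 genes the median difference at the untreated site was log2 0.80, against 0.03 over all genes, and 23 of the 37 had groups without overlap, beside 39.8% of all genes. Scaling by total counts instead of TMM factors lowered the median of all genes by 0.41 here and the share of higher calls among all calls from 51.3% to 20.7%. Under it 11 of the 37 were called higher and 2 lower, Ero1l and Pgam1, and none of the 18 genes changed sign. The count fell to 10 without untreated WT replicate 1 or untreated WT replicate 2. The 10 genes called in each of the 12 fits that leave out a library were Hk2, Gpi1, Tpi1, Gapdh, Pgk1, Pkm, Bnip3, Ero1l, P4ha1 and P4ha2.

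The muscle markers moved with the higher levels at the untreated site. Their summed level was 70160 to 163400 CPM in untreated DE2 and 31570 to 39880 CPM in untreated WT, and all 18 had reads in every group. Aldoa, Gapdh and Bnip3 were also higher in irradiated WT replicate 2 than in the other libraries of that group, at 11670, 2744 and 113 CPM, and that library had the most muscle marker reads of its group. With the muscle markers as a covariate, 0 of the 37 genes were called at the untreated site by edgeR's quasi-likelihood test (5 at an unadjusted p under 0.05), and the median difference was log2 0.17. Aldoa came to -0.05, Egln1 to -0.02, Egln3 to -0.12 and Slc16a3 to -0.22, while Ero1l stayed at -1.85 (adjusted p = 0.151). The covariate separated all untreated DE2 libraries, at 0.586 to 1.83, from the others, at 0.544 or less, so genotype at this site and muscle marker content cannot be told apart. Hair follicle markers also differed, at 0.0346% ± 0.0347 of counts in untreated DE2 and 1.84% ± 0.54 in untreated WT, and their part in the lower Ero1l was not tested.

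**Figure D3:**
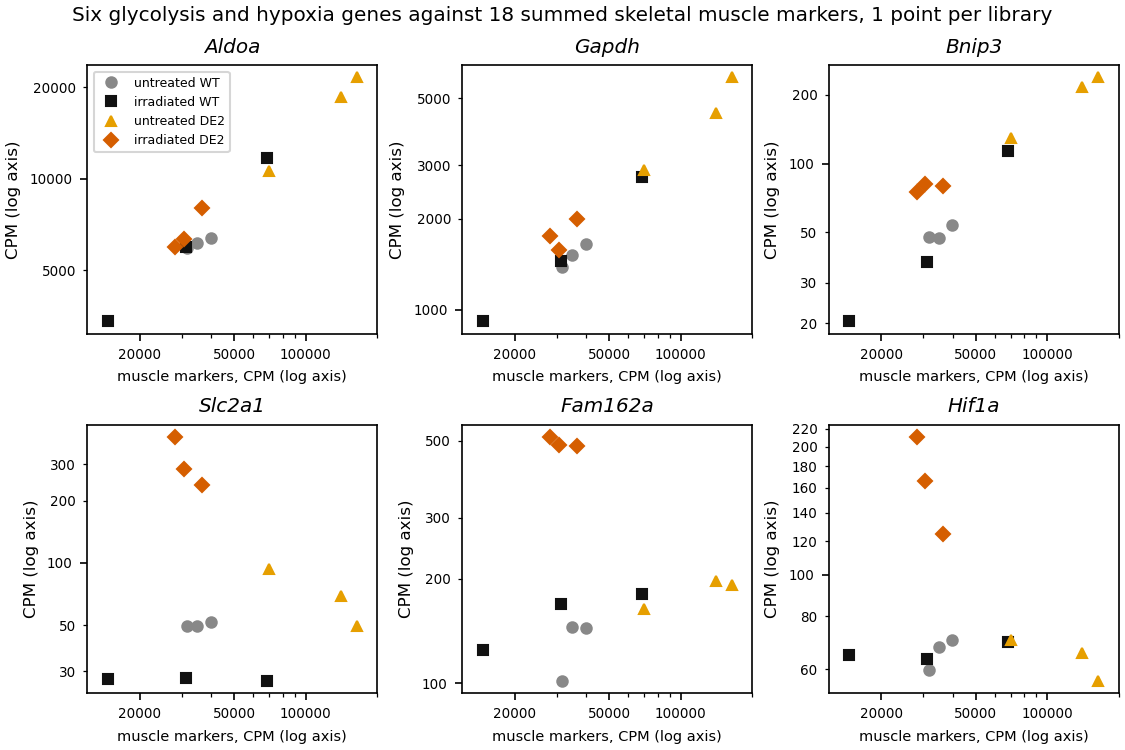
Each panel plots the CPM of 1 gene against the summed CPM of 18 skeletal muscle markers, 1 point per library, both axes logarithmic. Aldoa, Gapdh and Bnip3 are highest in the untreated DE2 libraries with the most muscle marker reads, whereas Slc2a1, Fam162a and Hif1a are highest in the irradiated DE2 libraries, at 28080 to 36270 CPM of muscle markers.

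**Figure D4:**
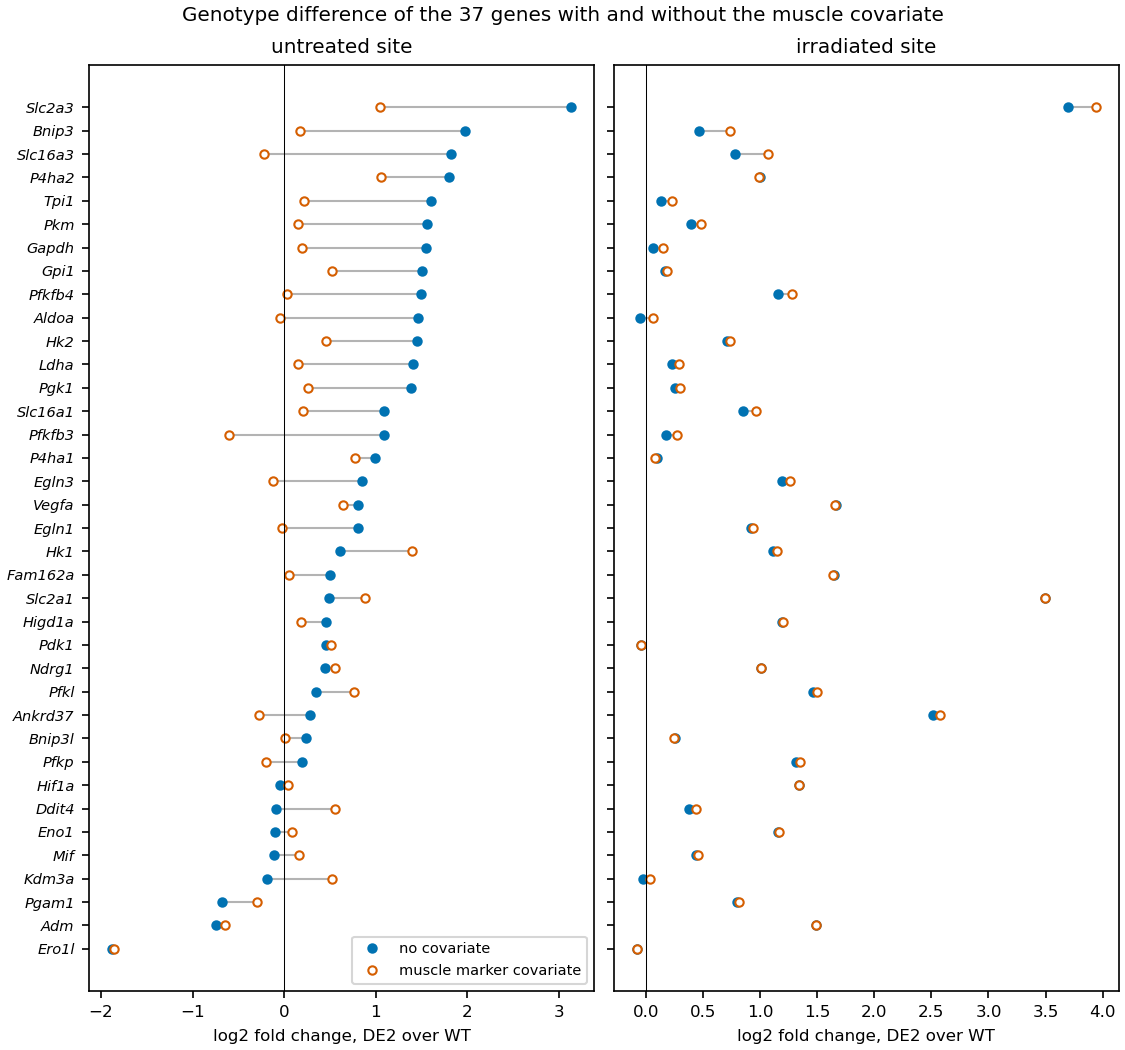
Dots give the genotype difference (log2 fold change, DE2 over WT) of each of the 37 genes at the untreated and the irradiated site, filled without and open with the muscle marker covariate. At the untreated site the median falls from 0.80 to 0.17, and at the irradiated site it goes from 0.80 to 0.94.

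UVB in WT skin gave no call among the 37 genes. By edgeR's quasi-likelihood test 0 passed, beside a background of 0.0198% of all genes, 4 had an unadjusted p under 0.05, and DESeq2 also called 0. The median difference was log2 0.17, against 0.03 over all genes. The smallest p belonged to Slc2a1, at 27.1 to 27.9 CPM after UVB and 49.6 to 52.1 CPM without, a fall that did not pass the test (log2 -0.87 ± 0.24, adjusted p = 0.701). Only Slc2a1 and Ankrd37 had groups without overlap among the 37, both lower after UVB, beside 10.1% of all genes. Leaving out irradiated WT replicate 2 and untreated DE2 replicate 1 together, Pfkp was called lower.

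Between irradiated and untreated DE2 skin 18 of the 37 genes were called, 11 higher and 7 lower after UVB. The background was 27.8% of all genes (14.4% higher and 13.4% lower). This comparison shares the irradiated DE2 libraries with the genotype comparison above, so calls in both are not separate evidence. UVB cannot be told apart from body site or shaving in it. Slc2a1 was 4.37-fold higher than at the untreated DE2 site (log2 2.13 ± 0.24, edgeR adjusted p = 2.2e-05), Eno1 2.84-fold, Fam162a 2.68-fold and Hif1a 2.61-fold. Pfkl, Higd1a and Ndrg1 rose by log2 1.30 ± 0.24, 0.76 ± 0.17 and 0.76 ± 0.20. Ero1l was at 101, 107 and 75.8 CPM after UVB and at 10.3 to 21.7 CPM without, the steepest rise of the 37 (log2 2.72 ± 0.40, adjusted p = 0.000231). Its level in irradiated DE2 was close to that in irradiated WT, at 107, 124 and 69.3 CPM.

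Adm was at 29.1, 24.9 and 28.8 CPM after UVB and at 7.07, 2.55 and 5.84 CPM without, with no overlap (log2 2.41 ± 0.51, edgeR adjusted p = 0.00328). Pgam1, phosphoglycerate mutase, was at 57.1, 80.6 and 52.9 CPM against 23.4, 18.1 and 19.2 CPM (log2 1.65 ± 0.28, adjusted p = 0.000693). Mif, a cytokine with isomerase activity, rose from 288, 246 and 247 CPM to 374, 405 and 460 CPM (log2 0.67 ± 0.18). All 3 genes stood higher in each irradiated library than in any untreated one. The 7 lower genes were Gpi1, Aldoa, Tpi1, Gapdh, Ldha, Bnip3 and P4ha1. Aldoa fell from 10630, 18590 and 21510 CPM to 6314, 5972 and 8009 CPM, which is 2.5-fold lower (log2 -1.32 ± 0.40, adjusted p = 0.0232), and Gapdh fell by 1.32 ± 0.35 on the log2 scale. The irradiated DE2 levels of Aldoa and Gapdh overlapped those of untreated WT.

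The median over the 37 genes was log2 0.31, against 0.02 over all genes, and 25 had groups without overlap, beside 41.5% of all genes. All 18 muscle markers were called lower after UVB in DE2, and the 13 hair follicle, 8 hyperproliferative keratinocyte and 7 of 8 tested neutrophil markers were called higher. The part of the keratinocyte, hair and neutrophil markers in these differences was not tested. With the muscle markers as a covariate 8 of the 37 were called, Slc2a1, Eno1, Fam162a, Hif1a, Ero1l and Higd1a among the original 18 and Egln3 and Slc16a3 besides. Under this covariate the lower genes Aldoa, Tpi1, Gapdh, Ldha and Bnip3 came to log2 0.21, 0.20, 0.06, 0.22 and 0.55. The count was 11 without irradiated DE2 replicate 1, when Aldoa, Tpi1, Gapdh, Ldha, Bnip3, Gpi1 and P4ha1 were no longer called, and 12 without untreated DE2 replicate 3. Scaling by total counts raised the median of all genes by 0.24 and the share of higher calls among all calls from 51.9% to 66.5%.

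**Figure D5:**
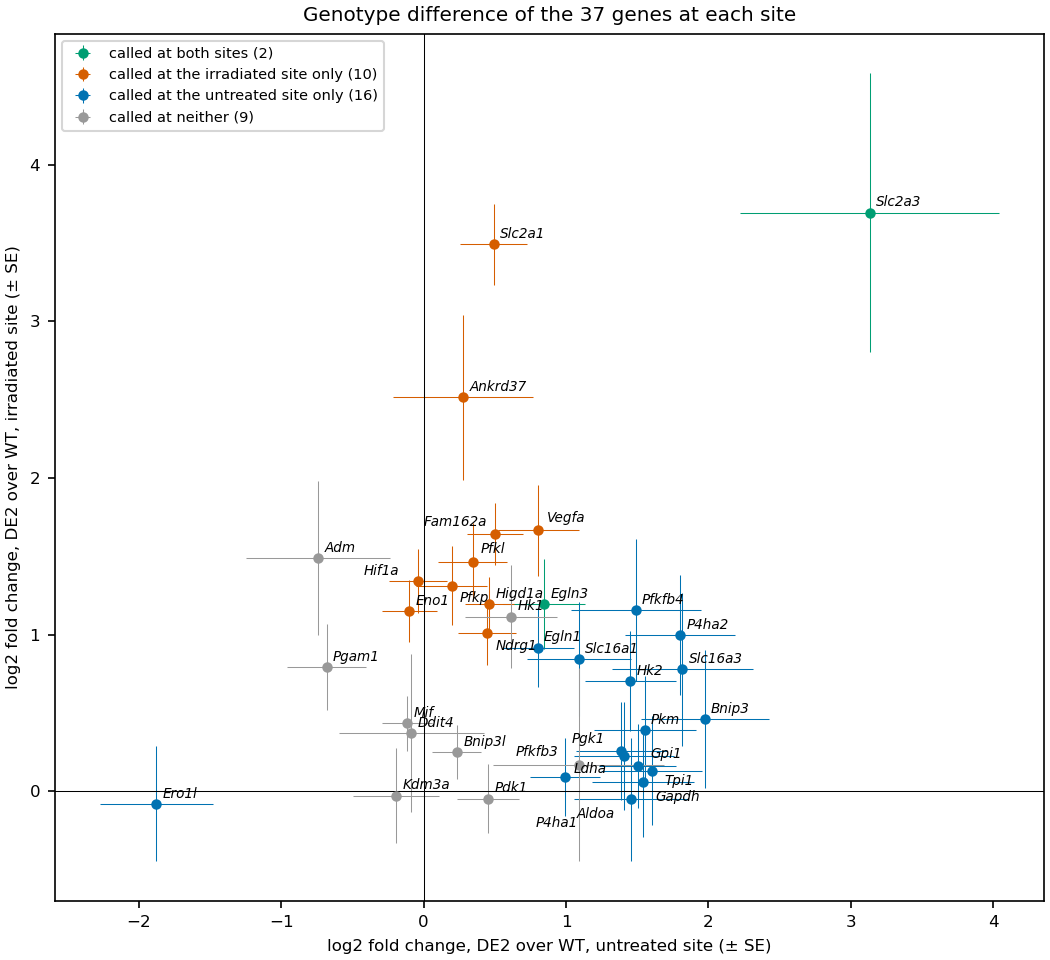
Each point is 1 of the 37 genes, with its log2 fold change of DE2 over WT (± SE) at the untreated site on the x axis and at the irradiated site on the y axis, coloured by the site of the call. Slc2a1 and Ankrd37 lie high at an x value under 0.5, whereas Gpi1, Gapdh, Aldoa and Tpi1 lie to the right, near 0 on the y axis.

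The interaction tests whether the difference between irradiated and untreated skin was itself different in the 2 genotypes. It was called for 8 of the 37 genes, 7 positive and 1 negative, beside a background of 10.5% of all genes (5.64% positive and 4.84% negative). In Slc2a1 the UVB difference was -0.87 in WT and 2.13 in DE2, an interaction of log2 3.00 ± 0.34 (edgeR adjusted p = 8.73e-05). Hif1a had an interaction of 1.38 ± 0.29, Eno1 of 1.25 ± 0.27, Fam162a of 1.14 ± 0.27 and Pfkl of 1.12 ± 0.34. Pgam1 and Ero1l also rose more with UVB in DE2, by 1.48 ± 0.39 and 1.80 ± 0.54, although neither was called between genotypes under irradiation, where Pgam1 was higher in DE2 by 0.80 ± 0.27 without overlap. Of the 8, Gpi1 alone had a negative interaction (-1.34 ± 0.38). For Pfkp, Ankrd37, Vegfa, Higd1a, Ndrg1, Egln3 and Slc2a3, which are 7 of the 12 genes called at the irradiated site, the interaction was not called, so their calls at the irradiated site are not shown to depend on UVB. Pfkp, Ankrd37 and Higd1a came nearest (edgeR adjusted p = 0.0572, 0.0578 and 0.0665). DESeq2 called each of these, and the fit with the muscle covariate did not.

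Slc2a1, Eno1, Fam162a and Hif1a were called for the interaction in each of the 12 fits that leave out a library. The count was 18 without untreated DE2 replicate 1, 14 without irradiated WT replicate 3, and 4 without untreated WT replicate 2, untreated DE2 replicate 2, untreated DE2 replicate 3 or irradiated DE2 replicate 2. It was 5 without untreated WT replicate 3, irradiated DE2 replicate 1 or irradiated DE2 replicate 3. With the muscle markers as a covariate only Slc2a1 and Fam162a of the 8 were called, and the median interaction of the 37 genes went from log2 0.16 to 0.74. The covariate was highest in the untreated DE2 libraries, although replicate 1, at 0.586, lay close to irradiated WT replicate 2, at 0.544. It therefore cannot cleanly separate the interaction from muscle marker content. Under total counts the median of all genes rose by 0.34 and the share of higher calls among all calls from 53.8% to 76.8%, and 11 of the 37 were called, without Gpi1.

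Ratios of levels within pairs of related genes were taken per kilobase of transcript. Hk2 exceeded Hk1 in every library, with a ratio of 3.67 ± 0.42 (SD, n = 3) in untreated WT and 8.13 ± 4.7 in untreated DE2, where replicate 1 was at 2.70 and the other 2 at 10.9 and 10.8. Bnip3 lay below Bnip3l in untreated WT, at 0.660 ± 0.045, and above it in untreated DE2, at 2.18 ± 0.52. The ratio was 0.752 ± 0.106 in irradiated DE2 and 0.608 ± 0.475 in irradiated WT, groups that overlapped. Bnip3l itself stayed within 113 to 199 CPM over all 12 libraries.

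Pfkp and Pfkl were at a ratio of 1.18 ± 0.47 per kilobase in untreated WT and 0.575 ± 0.093 in irradiated DE2, where both were at their highest. Their ratio was 0.667 ± 0.371 in irradiated WT, which overlapped irradiated DE2, and 0.988 ± 0.068 in untreated DE2. Egln3 to Egln1 was 0.838 ± 0.192 in untreated WT, 0.883 ± 0.207 in untreated DE2 and 1.45 ± 0.12 in irradiated DE2. In irradiated WT it was 1.17 ± 0.33, which overlapped irradiated DE2. P4ha1, the common collagen hydroxylase subunit, exceeded P4ha2 in every library. Their ratio was 3.31 ± 0.97 in untreated WT, 2.76 ± 0.71 in irradiated WT, 1.82 ± 0.22 in untreated DE2 and 1.69 ± 0.83 in irradiated DE2. Slc16a3 to Slc16a1 was 0.650 ± 0.018 in untreated WT and 1.10 ± 0.50 in untreated DE2, where replicate 1, at 0.564, lay below the WT libraries. Pfkfb3 to Pfkfb4 overlapped between untreated WT (1.74 ± 0.82) and untreated DE2 (1.11 ± 0.57). Pfkfb3, which makes the same activator as Pfkfb4, ranged from 22.2 to 128 CPM within untreated DE2.

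As a share of all counts, the 37 genes took 1.67% ± 0.07 in untreated WT, 1.71% ± 0.74 in irradiated WT, 3.18% ± 0.66 in untreated DE2 and 1.98% ± 0.13 in irradiated DE2. Aldoa, Gapdh, Ldha, Pkm and Tpi1 made up most of this. Without these 5, the other 32 took 0.271% ± 0.008, 0.278% ± 0.029, 0.334% ± 0.007 and 0.497% ± 0.050 in the same order, so that irradiated DE2 and not untreated DE2 had the highest share. All 5 were called higher in untreated DE2 than in untreated WT, so the changed order follows in part from which genes were left out. The first 2 principal components of the 37 genes held 54.1% and 29.6% of their variance. Irradiated DE2 libraries scored 2.25 to 4.14 on the first and 2.94 to 4.12 on the second, and untreated DE2 libraries 0.636 to 4.41 and -1.34 to -4.28, so the 2 DE2 groups separated on the second component, with untreated DE2 replicate 1 nearest to the WT libraries.

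Further genes of the same pathways were read from the same fit. Of 24 further glycolysis genes, 19 were tested, and by edgeR's quasi-likelihood test 0 differed between genotypes under irradiation (1 at an unadjusted p under 0.05, and 1 called by DESeq2). Of 8 further oxygen sensing genes 6 were tested, with 0 called by either tool and 1 at an unadjusted p under 0.05. Of 32 further HIF targets tested, Car12 and Bhlhe40 were called higher and none lower, beside a background of 2.35% of all genes higher and 0.608% lower. Car12, a carbonic anhydrase that handles acid at the cell surface, was at 150, 186 and 132 CPM in irradiated DE2 and at 37, 75.5 and 46.5 CPM in irradiated WT (log2 1.55 ± 0.30, adjusted p = 0.0114). Bhlhe40, a repressor of transcription, was higher by 1.01 ± 0.24. These lists too were written with earlier results known, and no difference between lists was tested.

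At the untreated site, 7 of the 19 further glycolysis genes were higher in DE2 and 2 lower. The background was 23% of all genes (11.8% higher and 11.2% lower). Ldhb, the lactate dehydrogenase subunit of oxidative tissue, was at 373, 500 and 455 CPM in untreated DE2 and at 98.8, 105 and 101 CPM in untreated WT (log2 2.12 ± 0.25, edgeR adjusted p = 2.87e-05). Pdk2, which restrains pyruvate oxidation, was higher by 2.32 ± 0.39 and Slc2a4, the insulin-responsive transporter of muscle and fat, by 2.45 ± 0.47. Slc16a7, a high-affinity pyruvate and lactate transporter, was at 0, 1.42 and 1.67 CPM in untreated DE2 and at 40.3, 38.0 and 35.2 CPM in untreated WT, with 11 reads in the DE2 group in all (log2 -5.20 ± 0.57, adjusted p = 1.63e-05). The muscle enzymes Pfkm, Eno3 and Pgam2, chosen for mention after their values were seen, were higher by 2.05 ± 0.45, 1.92 ± 0.45 and 1.87 ± 0.46.

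Of the 6 further oxygen sensing genes 4 were higher in untreated DE2, and of the 32 further HIF targets 9 were higher and 2 lower. The called HIF targets were 34.4% of those tested, beside 23% of all genes. Gbe1 and Gys1, which build glycogen, were higher by log2 1.93 ± 0.33 and 2.00 ± 0.38. With the muscle covariate, 1 further glycolysis gene was called higher and 1 lower at this site, and 0 genes of the other 2 lists were called (0 and 8 at an unadjusted p under 0.05). After UVB in DE2, 1 further glycolysis gene was higher and 8 were lower, Slc16a7 rising by 3.50 ± 0.57 and Ldhb, Pdk2 and Slc2a4 falling by 1.73 ± 0.24, 2.20 ± 0.39 and 2.52 ± 0.47 on the log2 scale. Among the HIF targets, 5 were higher and 6 lower, with Car12 at 3.08 ± 0.32 and Gbe1 at -1.86 ± 0.33. The called HIF targets were 34.4% of those tested. The background in this comparison was 27.8% of all genes (14.4% higher and 13.4% lower). In WT skin 0 of these 57 further genes were called after UVB by edgeR's quasi-likelihood test or by DESeq2, with 1 glycolysis gene, 0 sensing genes and 3 HIF targets at an unadjusted p under 0.05 by each.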

How the data were processed

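The authors deposited 1 table of raw read counts by Ensembl identifier for each library, without normalization. The submitters' processing notes name HTSeq 2.0.2, SAMtools 1.16, Picard 3.1.0 and Trimmomatic 0.39 and the build GRCm38. The aligner, annotation, strand setting and duplicate handling were not given in the sources used here. Symbols from GENCODE (GRCm38) matched 53360 of 53465 identifiers.

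The 37 genes and the other lists were chosen with earlier results of these data known. In R 4.3.3 with edgeR 4.0.16, filterByExpr over the 4 groups left 15126 genes. TMM factors scaled the libraries, and a robust quasi-likelihood fit with 1 mean per group (8 residual degrees of freedom, biological coefficient of variation 35.8%) gave 5 contrasts. P-values were adjusted by Benjamini-Hochberg over all genes tested. Standard errors were worked back from the test statistic. Levels are CPM after TMM scaling, ± SD over 3 libraries. Totals were 2809142 to 4741726 counts per library, and this depth limits the precision of scarce genes such as Slc2a3. A 3 v 3 permutation test cannot go below p = 0.1, so none was made. The fit was also run on simulated counts, with no result reported here, so that run backs none of the calls.

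Values per library are given for genes past the threshold and for isoform pairs in the list, and of the further pathway genes up to 6 per comparison with the smallest p. Promoters are the 4 with the smallest p at the irradiated site that hold a core. Alternatives were RLE and total-count scaling, no filter, DESeq2 1.42.0, only the libraries compared, a covariate for 18 muscle markers, leaving out each library, and leaving out irradiated WT replicate 2 and untreated DE2 replicate 1 together.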

Additional observations from a re-analysis of the deposited data

Results flagged for a closer look

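These genes were picked out because their UVB difference was tested between the genotypes, by the interaction term of edgeR's quasi-likelihood fit with Benjamini-Hochberg adjustment over all genes, and differed. Positive values mean a larger rise, or smaller fall, with UVB in DE2 than in WT. Among the 37 glycolysis and hypoxia genes the interaction on the log2 scale was 3.00 for Slc2a1, 1.80 for Ero1l, 1.48 for Pgam1, 1.38 for Hif1a, 1.25 for Eno1, 1.14 for Fam162a, 1.12 for Pfkl and -1.34 for Gpi1. Of 19 further glycolysis genes tested, 1 was called positive and 6 negative. Of 6 further oxygen sensing genes 2 were called negative, and of 32 further HIF targets 1 was called positive and 4 negative. The background was 10.5% of all genes (5.64% positive and 4.84% negative). Named from these are Slc16a7 at 3.77, Car12 at 2.73, Pdk2 at -2.61, Gbe1 at -2.12, Ldhb at -2.08 and Cited2, a coactivator gene that restrains HIF, at -1.40. With the muscle markers as a covariate Slc2a1 and Fam162a of the first 8 were called. Of the further genes, 1 glycolysis gene was then called negative, 1 HIF target positive and 0 sensing genes either way. That covariate was highest in the untreated DE2 libraries, and the part of muscle marker content in these interactions was not tested further.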

How the results depend on the processing

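No paired analysis was possible because the replicate numbers used here follow accession order, and no label numbers the libraries within a group or ties them to an animal. Counts of the 37 genes and of all genes called were within 1.5 times of the main count under RLE scaling in each comparison. Beyond that range, genes called for UVB in WT (3) were 1 under total-count scaling, 141 with no filter, 6 with the muscle covariate, 0 with only the libraries compared, 22 by DESeq2, 19 without irradiated WT replicate 2 and untreated DE2 replicate 1 together, and 0 to 15 leaving out single libraries. Among the 37, 1 gene was called without that pair of libraries. For UVB in DE2 the covariate left 793 genes and 8 of the 37, and single libraries left 11 to 23 of the 37. For genotype with UVB, all genes called numbered 1031 with no filter, 876 by DESeq2, 754 without the pair, and 130 to 616 leaving out single libraries, with 7 to 16 of the 37. For genotype without UVB the covariate left 430 genes and 0 of the 37, and single libraries left 2108 to 3881 genes and 10 to 20 of the 37. For the interaction, genes numbered 2438 with no filter, 313 with the covariate and 878 to 2585 leaving out single libraries. Of the 37 it was 17 with no filter, 2 with the covariate, 15 without the pair, 15 by DESeq2 and 4 to 18 leaving out single libraries. Signs turned with the covariate alone, for UVB in DE2 in Aldoa (0.21), Tpi1 (0.20), Gapdh (0.0591), Ldha (0.22) and Bnip3 (0.55), and for genotype without UVB in Aldoa (-0.0465), Slc16a3 (-0.22), Egln1 (-0.0191) and Egln3 (-0.12). The cause of these changes was not tested. Depth limits Slc2a3, with 16 reads in untreated WT, Ankrd37 and Ddit4.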
